A study of Mus musculus with 4 samples.

Results

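Collagens are the proteins whose triple helices form the fibrils and sheets of the extracellular matrix. The 44 genes described here were chosen by symbol alone, as Col, a number, the letter a and a number, among the 19938 genes that 1 probe set or several of the array assign to a single gene. They comprised 11 fibrillar collagens, 6 type IV collagens of basement membranes, 6 type VI collagens, 9 fibril-associated collagens, 2 multiplexins, 3 network-forming short-chain collagens, 4 transmembrane collagens, and Col7a1, Col26a1 and Col28a1. The choice of genes uses no measured value, but where a gene had several probe sets, the one with the highest mean over the 4 arrays was taken.

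Expression was measured in scrapings of mucosa and submucosa from the colon of male wild type C57BL/6J mice, 4 or 21 months old. All mice received a purified low-fat diet with 10% of its energy as fat before the intervention. They then stayed on it or changed to a high-fat diet with 45% for 2 weeks. RNA was pooled from 6 young or 8 old mice per diet group, and each of the 4 pools was hybridized to 1 array, so that no group had a replicate and the spread between mice was not measured. The groups are called young low-fat, young high-fat, old low-fat and old high-fat.

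In the intestine collagens are made mainly by fibroblasts, smooth muscle cells and other cells of the stroma, whereas the epithelium rests on a basement membrane built on type IV collagen. Chains are hydroxylated and folded in the endoplasmic reticulum, secreted, trimmed of their ends and crosslinked by lysyl oxidases. Collagen that has been laid down turns over slowly, so messenger RNA does not measure the amount of matrix in the tissue. The scrapings are bulk samples, in which fewer cells of a type and less RNA per cell cannot be told apart.

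Signals are log2 values from the deposited table. A gene was tested when its linear signal was above 50 (the floor) on at least 1 array, as the methods of the study prescribe, which held for 37 of the 44 collagens and 12666 genes in all. Of the 44, 31 were above the floor on all 4 arrays and 3 on 3 arrays. Col17a1, Col25a1 and Col28a1 were above it on 1 array, so that each entered through the array on which it was highest, and 7 were below it on every array. The number of arrays limits the precision. Signals of different probe sets depend on their probes, so levels were compared between arrays and not between genes.

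The tissue matched its label. All 12 markers of colon epithelium were above the floor, with Muc2, the gel-forming mucin, between 12169 and 13709 and the sum of the list between 67715 and 70231 on the 4 arrays. The median log2 signal of all probe sets was 6.12 on the young low-fat and old high-fat arrays, 6.19 on the young high-fat array and 6.20 on the old low-fat array. Summed marker signals of other cell types differed between the arrays. The summed linear signal of 10 smooth muscle markers, all above the floor, was 4030 on the young high-fat array against 1579 to 1886 on the others. That of 9 measured adipocyte markers, 8 of them above the floor, was 857 on the young high-fat, 1432 on the young low-fat, 1493 on the old low-fat and 3122 on the old high-fat array.

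The 250 bases before the start of 3 collagen genes are printed for reference to the values below, because Col8a1 showed the highest single difference, Col6a1 and its neighbour differed nearly alike, and Col1a2 encodes a chain of the most abundant fibrillar collagen. The sequences are those of RefSeq for mouse assembly GRCm38.p6, read on the strand of the gene. Capitals mark a GC box (GGGCGG or CCGCCC) or a CCAAT box (CCAAT or ATTGG).
Col8a1, chr16:57754738-57754987, minus strand: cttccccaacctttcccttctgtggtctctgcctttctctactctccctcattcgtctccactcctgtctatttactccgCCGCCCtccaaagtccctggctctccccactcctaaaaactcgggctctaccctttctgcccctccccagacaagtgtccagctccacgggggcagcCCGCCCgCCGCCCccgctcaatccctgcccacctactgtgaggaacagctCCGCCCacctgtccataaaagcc
Col6a1, chr10:76726045-76726294, minus strand: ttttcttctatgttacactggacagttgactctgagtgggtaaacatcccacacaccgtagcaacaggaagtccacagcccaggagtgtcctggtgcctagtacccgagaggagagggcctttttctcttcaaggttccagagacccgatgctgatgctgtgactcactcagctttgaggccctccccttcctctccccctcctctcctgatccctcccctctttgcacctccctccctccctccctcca
Col1a2, chr6:4505368-4505617, plus strand: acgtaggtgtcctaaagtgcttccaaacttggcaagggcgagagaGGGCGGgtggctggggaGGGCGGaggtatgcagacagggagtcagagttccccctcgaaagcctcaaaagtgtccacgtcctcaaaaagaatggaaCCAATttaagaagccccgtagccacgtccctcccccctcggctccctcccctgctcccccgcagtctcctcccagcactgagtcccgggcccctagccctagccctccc

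The window of Col8a1 held 4 GC boxes and no CCAAT box, that of Col1a2 held 2 GC boxes and 1 CCAAT box, and that of Col6a1 held neither. Promoter windows were given for 35 of the collagen genes (38 windows). A GC box lay in 57.9% of these windows against 32.7% of all 32851, a CCAAT box in 34.2% against 33.8%, and a TATA box (TATAAA or TTTATA) in 13.2% against 12.4%. The median GC content was 59.0% in the collagen windows and 52.4% in all windows. The motifs were searched on both strands and do not overlap in the sequences shown. A match describes the letters of the window and is no evidence of binding.

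Col4a1 and Col4a2, the chains of the common type IV collagen, lie next to each other on opposite strands, and their annotated starts are so close that the ends of both genes overlap. The 22 bases from one start to the other, chr8:11312805-11312826, are shown on the plus strand because both genes share them, with the GC box in capitals.
Col4a1 and Col4a2: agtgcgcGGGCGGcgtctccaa

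Differences between the arrays were small. No collagen differed by more than 2.0-fold in any of the 4 comparisons. Between old and young mice 0 of 37 did so on the low-fat diet, where 0.426% of all genes tested did, and 0 of 37 on the high-fat diet (0.663%). Between the high-fat and low-fat diets 0 of 37 did so in young mice (0.118%) and 0 of 37 in old mice (0.103%). At 1.5-fold 1 collagen passed, Col8a1, in the age comparison on the high-fat diet (3.41% of all genes) and in the diet comparison in old mice (1.14%), and none in the age comparison on the low-fat diet (2.26%) or the diet comparison in young mice (1.45%). These comparisons have 1 array per group and no test.

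**Figure D1:**
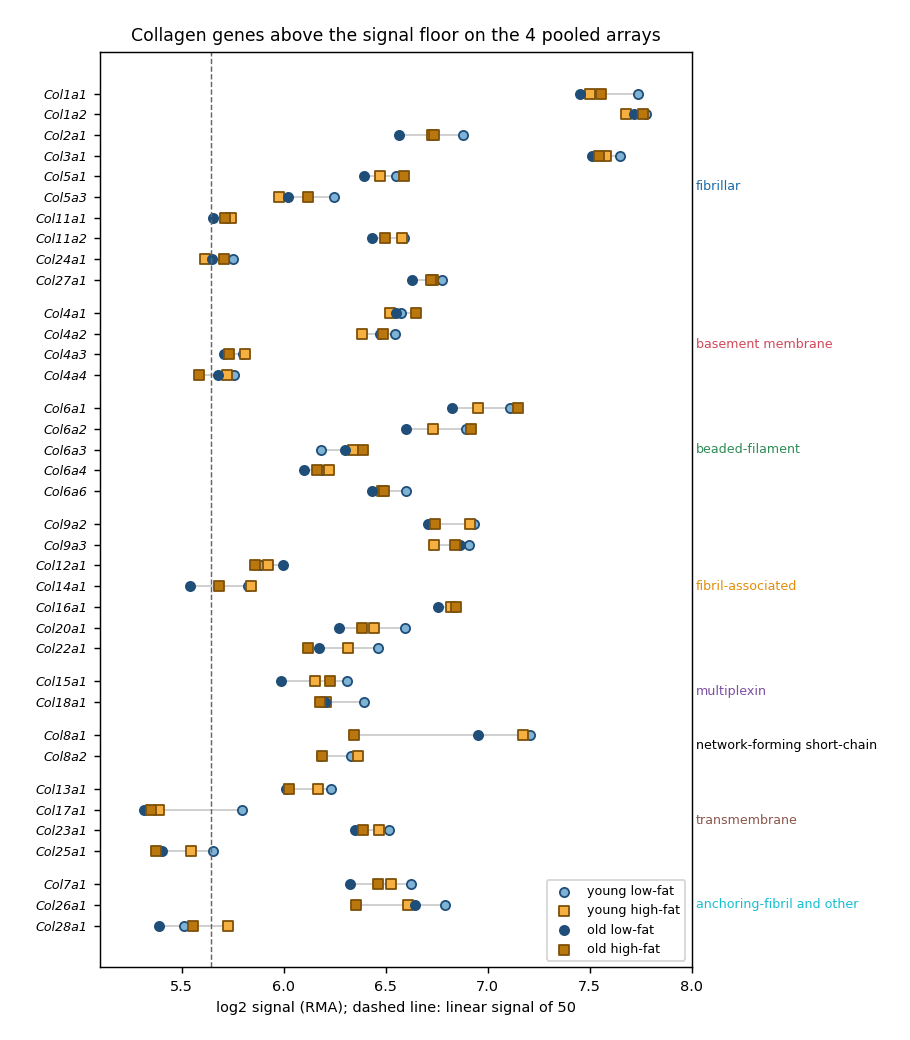
Log2 signals of the 37 collagen genes above the floor, 1 point per gene and array, grouped by class, with no error because each group had 1 array. Points are to be compared within a row, and Col8a1 on the old high-fat array (6.34 against 6.95 to 7.21) stands farthest from the other arrays of its row.

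The additive limma fit of age and diet over the 4 arrays called no collagen. For age 0 of 37 collagens changed (adjusted p under 0.05), where 0.395% of all genes did, and 1, Col8a1, had an unadjusted p under 0.05, where 3.68% of all genes did. For diet 0 of 37 changed and none had an unadjusted p under 0.05, where 0% and 0.718% of all genes did. The fit compares 2 old with 2 young pools and takes its error from how far the age effects on the 2 diets lie apart, to which the prior adds 8.915 degrees of freedom. A true dependence of the age effect on diet therefore counts as error. Standard errors (SE) of the collagens lay between 0.155 and 0.18 and contain no spread between replicate pools, of which there were none.

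Although single differences were small, most collagens were lower in old mice on the low-fat diet. There 35 of 37 were lower on the old array and 2 were higher, Col6a3 and Col12a1, whereas 48.8% of all genes tested were lower. The median log2 difference was -0.16, with a range of -0.48 to 0.12, against 0.01 over all genes. Among the 5640 other genes whose mean signal lay in the range of the collagens, log2 5.46 to 7.73, 55.3% were lower and the median was -0.03. With the young high-fat array in place of the young low-fat array 29 of the 37 were lower on the old low-fat array, against 47.6% of all genes. Without the 3 members above the floor on 1 array, 32 of 34 were lower on the low-fat diet, against 48.2% of all genes that passed it on at least 2 arrays.

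On the high-fat diet 22 of 37 collagens were lower on the old array (46.9% of all genes), with a median of -0.03 against 0.02 over all genes and a range of -0.83 to 0.20. Centring each array on its median adds 1 constant to every gene of a comparison, which put the median of all genes at -0.08 on the low-fat and at 0.08 on the high-fat diet. With it 38 of 40 collagens (median -0.23) were lower on the low-fat diet, against 63.6% of all genes, and 14 of 40 (median 0.04) on the high-fat diet, against 33.7%. Members just below 0 turned sign by construction there, Col3a1 among them (from -0.03 to 0.04).

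Both old arrays lay below both young arrays in 19 of the 37 collagens, against 12.3% of all genes, and above them in none, against 16.1%. Among the other genes in the same signal range 18.3% were below and 17.7% above. The count depended on the arrays and the floor. It was 29 without the young high-fat array, where 29.0% of all genes lay below, and 20 without the young low-fat array, where 30.4% did. It was 12 of 40 (30.0%) after median centring, against 11.7% of all genes, and 4 of 13 with a floor of 100, against 9.0%. Without the members above the floor on 1 array it was 17 of 34, against 11.8% of all genes so chosen. None of the members that did not overlap passed the additive fit.

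The young low-fat array was the highest of the 4 in 24 of the 37 collagens (64.9%, against 23.0% of all genes), and the old low-fat array was the lowest in 23 (62.2%, against 23.1%). Among the other genes in the same signal range these shares were 31.0% and 25.9%. The age comparison on the low-fat diet and the diet comparison in young mice share the young low-fat array, so the lower values of 29 of 37 collagens on the young high-fat array (51% of all genes, median -0.08) are not independent of it. In old mice 8 of 37 collagens were lower on the high-fat array (48.5% of all genes) and 29 were higher, with a median of 0.06, and this comparison shares the old low-fat array. With 1 array per group, the position of an array and the effect of its group cannot be told apart.

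The age differences had opposite signs on the 2 diets in 15 of the 37 collagens, and in 6 of them they lay more than 0.3 apart on the log2 scale, as did those of 33.9% of all genes. At this limit the share of the collagens was thus below that of all genes. For opposite signs of any size the share of all genes was not counted.

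**Figure D2:**
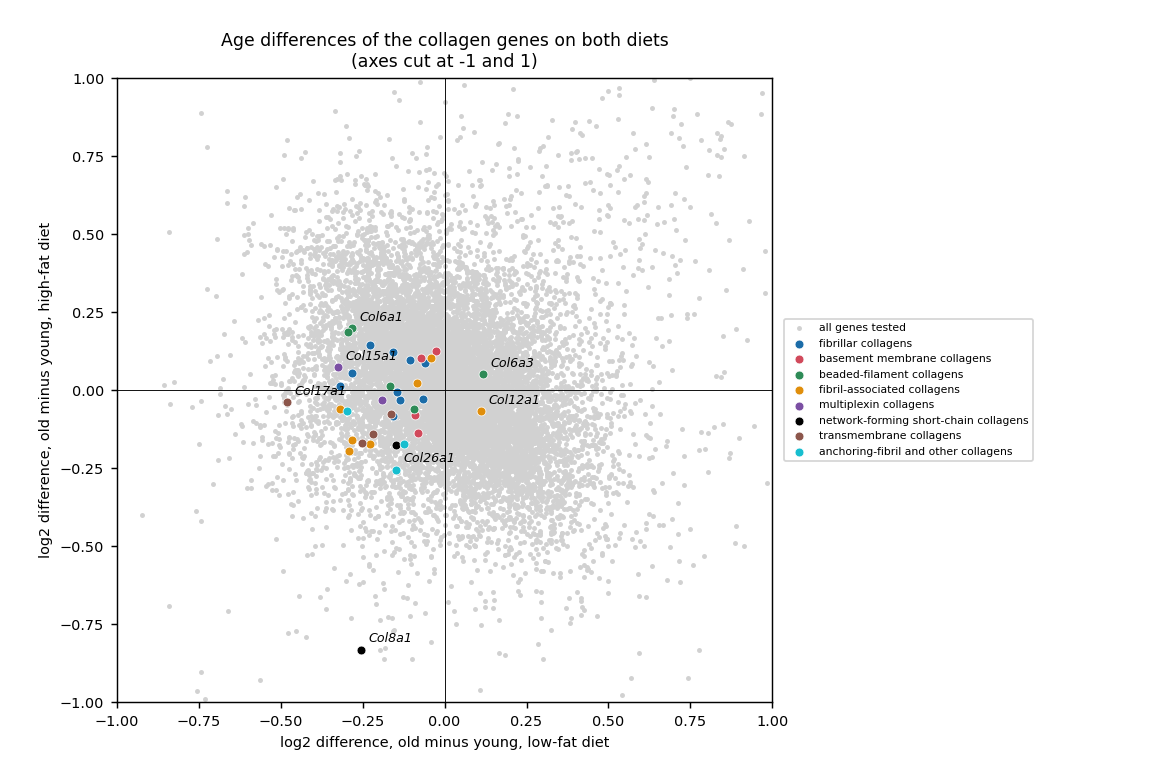
Each coloured point is 1 of 37 collagen genes, placed by its log2 age difference (old minus young) under low-fat feeding on the horizontal and under high-fat feeding on the vertical axis, and grey points are the genes tested, shown between -1 and 1 on both axes. All but 2 collagens, Col6a3 and Col12a1, lie left of zero, while on the vertical axis 22 lie below zero and Col8a1 (-0.83) lies lowest.

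Fibrillar collagens bear the tensile load of connective tissue. Type I collagen is built from the products of Col1a1 and Col1a2. Col1a1 had log2 signals of 7.74 on the young low-fat, 7.50 on the young high-fat, 7.45 on the old low-fat and 7.56 on the old high-fat array. Its age difference was -0.28 under low-fat and 0.05 under high-fat feeding (additive fit -0.11 ± 0.16 SE), so the young low-fat array stood above the other 3. Col1a2 had 7.78, 7.68, 7.72 and 7.76 in the same order, a spread of 0.10, with age differences of -0.06 and 0.09 (0.01 ± 0.16). The chains of one protein thus differed in size of the low-fat difference, and neither passed the test.

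Col3a1, whose type III collagen accompanies type I in distensible tissues such as the gut wall, had signals of 7.65, 7.58, 7.51 and 7.55 on the young low-fat and high-fat and the old low-fat and high-fat arrays. Both old arrays were lower than both young arrays, by at most 0.14, and the additive fit gave -0.08 ± 0.16 for age. Col5a2, which lies next to Col3a1 on the chromosome, was below the floor on all 4 arrays (5.37 to 5.48).

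Type V collagen sets the diameter of type I fibrils. Col5a1 had 6.55 and 6.47 on the young low-fat and high-fat arrays and 6.39 and 6.59 on the old ones, and Col5a3 had 6.25 and 5.98 against 6.02 and 6.12. In both genes the old array was lower on the low-fat diet (-0.16 and -0.23) and higher on the high-fat diet (0.12 and 0.15), so the groups overlapped.

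Col2a1, Col11a1 and Col11a2 encode the fibrillar collagens of cartilage, and Col9a1, Col9a2 and Col9a3 the collagen on their surface. Col2a1 had 6.88, 6.73, 6.56 and 6.74 on the young low-fat and high-fat and the old low-fat and high-fat arrays, and Col11a2 had 6.59, 6.58, 6.43 and 6.50. Col9a2 had 6.94 and 6.91 in young and 6.71 and 6.74 in old mice, without overlap (-0.20 ± 0.16 SE). These signals were above the floor, while the defining cartilage markers were not. Acan, the cartilage proteoglycan aggrecan, had linear signals of 18.9 to 25.1, Matn1 18.7 to 21.2, Hapln1 18.5 to 22.7 and Matn3 27.0 to 28.7. Of 7 chondrocyte markers 2 were above the floor, Sox9, which colon crypts also express, and Chad, at 50.04 on the young low-fat array alone, and the sum of the list lay between 508 and 600. How much of the signal of the cartilage collagens came from their transcripts was not tested.

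The remaining fibrillar members differed little between arrays. Col11a1 ranged from 5.65 to 5.74, Col24a1 from 5.61 to 5.75 and Col27a1 from 6.63 to 6.77. Of the 10 fibrillar collagens above the floor 10 were lower on the old array on the low-fat diet (median -0.15) and 4 on the high-fat diet (median 0.03). In old mice all 10 were higher on the high-fat than on the low-fat array, by 0.03 to 0.20.

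Type IV collagen forms the network of basement membranes. Col4a1 had 6.58 and 6.52 on the young low-fat and high-fat arrays and 6.55 and 6.65 on the old ones. Col4a2 had 6.54, 6.38, 6.47 and 6.49 in that order. The age differences of this neighbouring pair were -0.03 and -0.07 on the low-fat diet and 0.12 and 0.10 on the high-fat diet (additive fit 0.05 ± 0.16 and 0.02 ± 0.16 SE), so both genes overlapped between young and old. In the plot of signals by array both stay within a narrow band.

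Col4a3 and Col4a4, neighbours that supply a rarer type IV network known from kidney, had 5.80 and 5.81 in young against 5.71 and 5.73 in old mice, and 5.76 and 5.72 against 5.68 and 5.58. Both were lower on both old arrays, at signals close to the floor. Col4a5 (5.19 to 5.48) and Col4a6 (5.49 to 5.62), a further neighbouring pair, stayed below the floor. Of the 4 members above it 4 were lower on the old array on the low-fat diet, with a median of -0.08, and 2 on the high-fat diet, with a median of 0.01.

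The multiplexins Col15a1 and Col18a1 lie in the basement membrane zone of vessels and epithelia, and Col18a1 carries endostatin at its end. Col15a1 had 6.31 and 6.15 on the young low-fat and high-fat arrays and 5.99 and 6.23 on the old ones. Its age difference was -0.33 under low-fat and 0.07 under high-fat feeding. Col18a1 was highest on the young low-fat array at 6.39, with 6.21, 6.20 and 6.18 on the young high-fat, old low-fat and old high-fat arrays. Col7a1, the anchoring fibril that ties the basement membrane to the stroma, had 6.62 and 6.53 in young and 6.32 and 6.46 in old mice, without overlap (-0.18 ± 0.16 SE).

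Type VI collagen forms beaded filaments around cells and is abundant around muscle and fat cells. Col6a1 had 7.11 and 6.95 on the young low-fat and high-fat arrays and 6.83 and 7.15 on the old ones. Col6a2, its neighbour on the chromosome, had 6.89, 6.73, 6.60 and 6.92. Both were lower on the old array on the low-fat diet (log2 -0.28 and -0.29), 0.20 and 0.19 higher on it on the high-fat diet, and 0.32 higher with the high-fat diet in old mice, the highest diet differences of the family there. Their values on the 4 arrays ran nearly parallel, but old and young groups overlapped and the additive fit gave -0.04 ± 0.17 and -0.05 ± 0.17.

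Col6a3, which joins the products of Col6a1 and Col6a2 in the common type VI molecule, had 6.18 and 6.34 on the young low-fat and high-fat arrays and 6.30 and 6.39 on the old ones. It was lowest on the young low-fat array, the array on which most members were highest, and had age differences of 0.12 and 0.05. Col6a4 and Col6a6, which lie on either side of Col6a5 on the chromosome, ranged from 6.10 to 6.22 and from 6.43 to 6.60. A second probe set of Col6a6 lay below the floor and gave age differences of -0.25 and -0.20, against -0.17 and 0.01 for the set used. Col6a5 did not reach the floor with either of its probe sets. The set used lay between 5.57 and 5.63 with age differences of 0.04 on each diet, and the second set gave -0.26 and 0.10.

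The sum of adipocyte markers was also highest on the old high-fat array, where Adipoq had a linear signal of 208 against 35.0 on the young high-fat array. Adipoq, Fabp4, Plin1, Retn, Lpl and Car3, genes of fat cells, were over 2.0-fold higher in old than in young mice on the high-fat diet, by log2 1.14 (Plin1) to 2.57 (Adipoq). Among the type VI genes above the floor the old high-fat array was the highest for Col6a1, Col6a2 and Col6a3. Col6a4 was highest on the young high-fat array, where the adipocyte sum was lowest, and Col6a6 on the young low-fat array. The part of fat cells in these values was not tested.

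Col8a1 showed the greatest difference of the family. Its product forms short-chain networks in the walls of vessels and under endothelia. The log2 signal was 7.21 on the young low-fat and 7.18 on the young high-fat array, 6.95 on the old low-fat and 6.34 on the old high-fat array, linear signals of 148, 145, 124 and 81.2. Both old arrays were below both young arrays, and the old high-fat array was by far the lowest. The fold was 1.78 on the high-fat diet (log2 -0.83) and 1.19 on the low-fat diet (-0.26), and in old mice the high-fat array was 1.53-fold lower than the low-fat array (-0.61), against -0.03 in young mice. The additive fit gave a log2 age change of -0.54 ± 0.18 SE with an unadjusted p of 0.013 and an adjusted p of 0.72, and a diet change of -0.32 ± 0.18 with an adjusted p of 1.0 (limma). It did not pass the test.

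Marker values of vascular and muscle cells are given beside Col8a1, and their part in its values was not tested. The smooth muscle markers summed to 1581 and 4030 in young mice on the low-fat and high-fat diets and to 1886 and 1579 in old mice. The sum of 10 endothelial markers, 5 of them above the floor, was 420 and 408 in young and 493 and 465 in old mice, and that of 6 pericyte markers, 5 above the floor, was 412 and 443 against 513 and 481. The other 5 endothelial markers were below the floor on every array. Col8a2, the partner chain, had 6.33 and 6.36 in young and 6.18 and 6.19 in old mice, a small difference without overlap (-0.16 ± 0.16 SE). Col10a1, the related collagen of hypertrophic cartilage, was below the floor (4.51 to 4.91).

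Fibril-associated collagens sit on the surface of fibrils. Col14a1 had 5.82 and 5.84 in young against 5.54 and 5.68 in old mice, without overlap, at signals near the floor (-0.22 ± 0.16 SE). Col22a1 had 6.46 and 6.32 in young against 6.17 and 6.12 in old mice (-0.24 ± 0.16), and Col20a1 had 6.59 and 6.44 against 6.27 and 6.38 (-0.19 ± 0.16). In these members too the old arrays lay below the young ones by less than the fit could call. Col12a1 was the exception on the low-fat diet, with 5.88 and 5.93 in young and 6.00 and 5.86 in old mice. Col16a1 (6.76 to 6.84) and Col9a3 (6.73 to 6.91) varied little, and Col9a1 (5.30 to 5.61) and Col19a1 (4.91 to 5.12) were below the floor.

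Of the 7 fibril-associated members above the floor 6 were lower on the old array on the low-fat diet (median -0.23) and 5 on the high-fat diet (median -0.07).

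The transmembrane collagens span the cell surface, and Col17a1 belongs to the hemidesmosome that fixes epithelial cells to the basement membrane. Col17a1 was highest on the young low-fat array at 5.80, followed by 5.39, 5.31 and 5.35 in the order young high-fat, old low-fat and old high-fat. Its low-fat age difference of -0.48 was the lowest of the family on that diet, but no other array exceeded the floor, so the size of this difference is uncertain. Col13a1 had 6.23 and 6.17 in young against 6.01 and 6.03 in old mice, and Col23a1 had 6.52 and 6.47 against 6.35 and 6.39. Col25a1 lay between 5.37 and 5.65, and like Col17a1 it passed the floor only in young mice on the low-fat diet, so that both entered through their highest array. In Col13a1 and Col23a1, above the floor on all 4 arrays, both old arrays were below both young arrays, with medians of -0.19 under low-fat and -0.11 under high-fat feeding. With Col17a1 and Col25a1, where the old arrays were also the lower ones, the medians of the 4 were -0.24 and -0.11.

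Col26a1 had 6.79 and 6.61 in young and 6.64 and 6.35 in old mice. It was lower on the high-fat diet at both ages, with log2 differences of -0.18 in young and -0.29 in old mice (additive fit for diet -0.24 ± 0.16 SE, adjusted p = 1.0 in limma). Col28a1 lay higher on the high-fat array at both ages (0.22 and 0.17), but was above the floor on the young high-fat array alone.

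Genes that make, trim, bind and remove collagen were described from 7 lists, and no member of any list passed the additive fit for age or diet. Of 12 tested genes of chain modification and folding 8 were lower on the old array on the low-fat diet (median -0.07) and 5 on the high-fat diet (0.04). P4hb, a subunit of prolyl 4-hydroxylase, had age differences of -0.24 and 0.19, Ppib, a cyclophilin that speeds folding, 0.29 and -0.17, Mia3, which exports procollagen, -0.18 and 0.06, and Serpinh1, the collagen chaperone HSP47, 0.25 and 0.02. The directions of these helpers differed from gene to gene. Of 5 tested genes of processing and crosslinking 3 were lower on each diet, with medians of -0.03 and -0.06. Bmp1, a protease that trims procollagen, had age differences of -0.28 and -0.10, its enhancer Pcolce 0.09 and 0.20, and Adamts3, which removes the other end, -0.14 and -0.11, and Lox, the founding lysyl oxidase, did not reach the floor (18.4 to 22.9 linear).

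Collagen degradation, with 5 genes tested, had medians of 0.09 under low-fat and -0.01 under high-fat feeding. Mmp14, a membrane-bound collagenase, had age differences of 0.09 and 0.26 and Timp3, an inhibitor of such proteases, 0.34 and -0.08, with Timp2 at 0.17 and -0.01. The 6 tested collagen receptors had medians of 0.12 and -0.09, with the integrin gene Itga1, a receptor of type IV collagen, at 0.49 and -0.09, its partner Itgb1 at 0.12 and -0.10 and Itga2, which binds type I collagen, at 0.13 and -0.20. Ddr1, a kinase that collagen activates, had -0.31 and 0.06. Neither list lay to one side on both diets. The 11 tested genes of the TGF-beta list, inducers of collagen synthesis and their targets, had medians of 0.12 and 0.15, with 6 and 7 higher on the old array. Among them the signal transducers Smad4 (0.12 and 0.15), Smad2 (0.18 and -0.06) and the inhibitor Smad7 (0.19 and -0.24) had the highest signals.

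Collagen-binding matrix proteins held the only pathway gene over 2.0-fold, Dcn. It encodes decorin, a proteoglycan that coats fibrils, and had linear signals of 216 and 330 on the young low-fat and high-fat arrays and 477 and 347 on the old ones. Decorin was 1.14 higher on the log2 scale on the old low-fat array and 0.08 higher on the old high-fat array (additive fit 0.61 ± 0.23 SE, adjusted p = 1.0 in limma), opposite in direction to Col1a1 and Col3a1 on the low-fat diet. Sparc, which chaperones collagen outside the cell, had 184 and 162 in young and 192 and 291 in old mice and was highest on the old high-fat array, as were Col6a1 and Col6a2. Aspn had age differences of 0.79 and -0.53, which point opposite ways. Thbs1, a thrombospondin, had -0.39 and 0.12 and Prelp, which links collagen to basement membranes, 0.13 and 0.55. Of the 12 tested members 4 were lower on the old array on the low-fat diet (median 0.09) and 6 on the high-fat diet (median 0.01).

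Genes of the other basement membrane proteins had opposite medians on the 2 diets. Of 12 tested laminins and other basement membrane genes 9 were lower on the old array on the low-fat diet (median -0.06) and 1 on the high-fat diet (median 0.22). Lamb3, a chain of the epithelial laminin, had linear signals of 737 and 508 on the young low-fat and high-fat arrays and 563 and 699 on the old ones, and Agrn had 246 and 188 against 240 and 255. Lama3, of the same laminin as Lamb3, had 509 and 406 against 448 and 395. Nid1, which links laminin to type IV collagen, had age differences of 0.14 and 0.58 (0.36 ± 0.17 SE). In young mice 10 of the 12 were lower on the high-fat array, with a median of -0.25, beside a median of -0.05 for the type IV collagens.

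**Figure D3:**
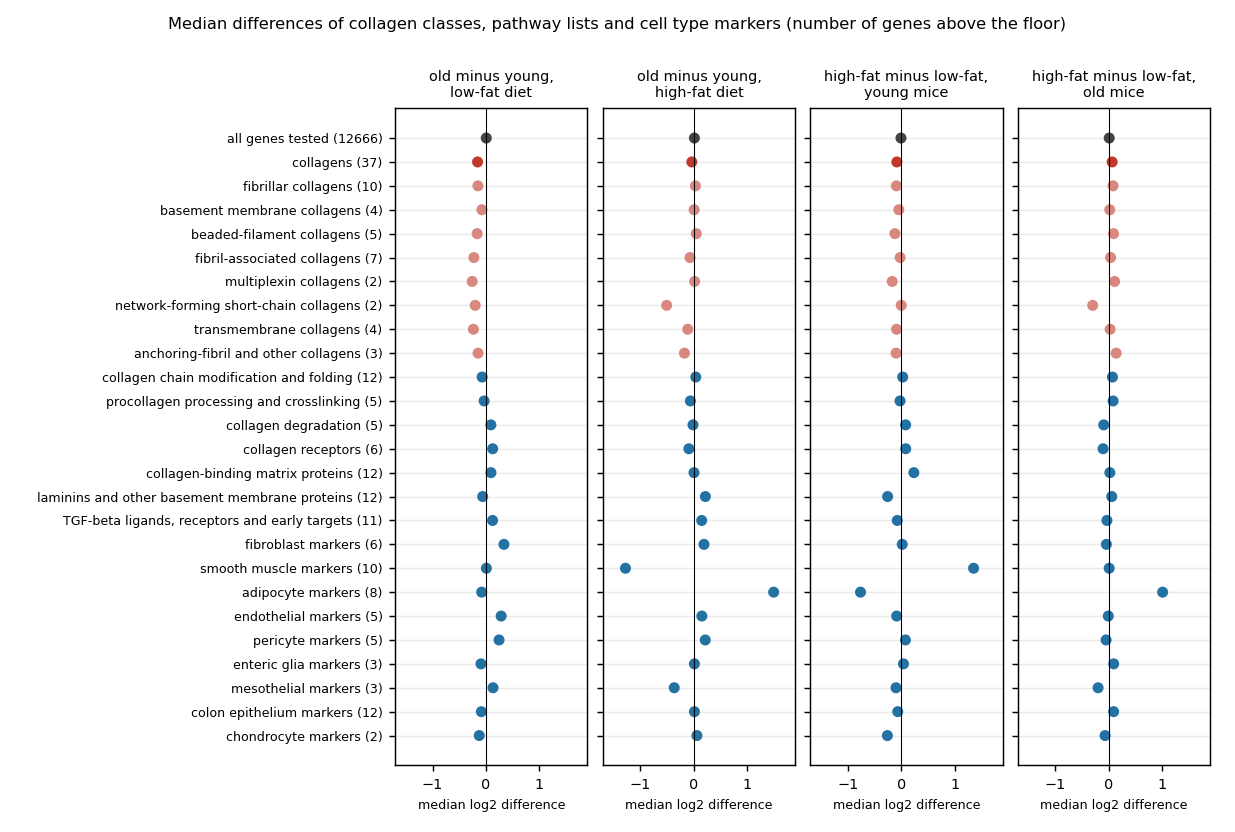
Median log2 difference of all genes tested, the collagens and their classes, the pathway lists and the cell type markers in the 4 comparisons, with the number of genes above the floor in parentheses and no error because each group had 1 array. The classes of collagen lie between -0.26 and 0.14 except the network-forming class, which holds Col8a1 (-0.50 and -0.30 on the age comparison of the high-fat diet and the diet comparison of old mice), and fibroblast markers lie above zero in both age comparisons (0.34 and 0.19), while smooth muscle markers reach -1.28 and adipocyte markers 1.499 in the age comparison on the high-fat diet.

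Most of the fibroblast markers above the floor were higher on the old arrays, and fibroblasts are a main source of collagen. Of 6 tested fibroblast markers 5 were higher on the old array on the low-fat diet (median 0.34), where 48.8% of all genes were lower. On the high-fat diet 4 were higher (0.19), where 46.9% of all genes were lower. None passed the additive fit. The sum of all 9 was 667 and 653 in young and 786 and 782 in old mice. Dpt, a dermatopontin that binds fibrils, had linear signals of 115 and 118 in young and 163 and 191 in old mice (0.60 ± 0.16 SE, adjusted p = 0.338 in limma), and Pdgfra, a receptor of stromal cells, 175 and 163 against 213 and 201. Fbln1, a fibulin, had age differences of 0.17 and -0.01. Scara5 went the other way, with 57.5 and 49.98 in young and 46.4 and 49.8 in old mice, and both old arrays below both young ones. Of the 3 markers below the floor Pi16 had age differences of -0.57 and 0.01, Clec3b -0.21 and 0.05 and Mfap5 -0.05 and -0.13. The age differences of Col1a1 (-0.28 and 0.05) and Col3a1 (-0.14 and -0.03) stand beside these values, and the part of the number of fibroblasts in them was not tested. Rgs5, a pericyte marker, had log2 age differences of 1.11 and -0.21.

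The part of smooth muscle in the collagen values was not tested either. Smooth muscle cells make collagen, and the sum of their markers was highest on the young high-fat array, as given above. The median difference of the 10 markers between the young high-fat and young low-fat arrays was 1.36 on the log2 scale, while that of the 37 collagens was -0.08 and that of the 10 fibrillar collagens -0.09. Acta2, Actg2, Cnn1, Tagln, Myh11 and Des, genes of the contractile apparatus and its filaments, were over 2.0-fold higher there, by 1.28 (Des) to 1.81 (Cnn1). Smtn (0.01) and Lmod1 (0.11) differed least between these young arrays. Between the old and young high-fat arrays the median of the smooth muscle markers was -1.28, beside -0.03 for the collagens and 0.03 for the fibrillar class. Enteric glia markers had medians of -0.09 and 0.02 in the age comparisons and mesothelial markers 0.13 and -0.36.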

How the data were processed

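The authors deposited log2 signals, 1 per probe set and array, computed by RMA (robust multi-array averaging), in which background is corrected, arrays are quantile normalized and probes are summarised. Its version was not given in the sources used here. Quantile normalization tends to remove a shift shared by most genes, so such a shift might not be seen. The medians of the deposited arrays still differed, from 6.12 to 6.20. Rows are named by the manufacturer's transcript clusters, although the methods describe Entrez-based sets.

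Of 35556 probe sets 21789 had 1 gene, and the highest-mean set stood for each gene. Genes above a linear signal of 50 on at least 1 array entered after 26 measured pancreatic acinar genes were removed, in place of the atlas used by the study. Single comparisons were called at 2.0-fold without a test. An additive model of age and diet was fitted across 12666 genes (R 4.3.3, limma 3.58.1, Benjamini-Hochberg adjustment). The fit was tested on simulated data that held age changes, but no diet effect and no dependence of the age effect on diet. How the fit handles such effects was not tested.

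The rule for members uses symbols alone, but it and the lists were set with earlier results of these data known. The 7 pathway and 9 marker lists held 177 genes, of which 166 were measured. By rule every collagen above the floor was described, and genes of the lists were named when over 2.0-fold in a comparison, past the fit, or, up to 3 a list, for the highest mean signals. Others were named after their values were seen. Alternatives were floors, fold thresholds, median centring, quantile normalization, means of probe sets, an intensity trend, no term for the other factor and fits without 1 array. Crossed pairs, counts of direction without 1 array the age differences of single collagens and a floor passed on at least 2 arrays were added after the data were seen. Promoter sequences are from RefSeq.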

Additional observations from a re-analysis of the deposited data

Results flagged for a closer look

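In 15 of 37 collagens the age difference had opposite signs on the 2 diets, and in 6 of them the differences were more than 0.3 apart on the log2 scale, a limit chosen after the values were seen. Of all genes tested 33.9% met the same limit, a larger share than among the collagens. The share of all genes with opposite signs of any size was not counted, so the 15 are not read as particular to the collagens. In each of the 6 the old array was lower under low-fat and higher under high-fat feeding. The high-fat minus low-fat value of the age difference was 0.48 for Col6a1, 0.48 for Col6a2, 0.40 for Col15a1, 0.37 for Col5a3, 0.34 for Col1a1 and 0.33 for Col2a1. With 1 array per group the difference was not tested.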

How the results depend on the processing

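No collagen passed the additive fit for age or diet in any alternative run, including those without 1 array and without the term for the other factor, and none passed 3.0-fold. At 1.5-fold the count was 1 for age on the high-fat diet and 1 for diet in old mice. With a floor of 100, 13 collagens were left. Of these 13 were lower on the old array on the low-fat diet, against 45.3% of all genes, and 5 on the high-fat diet, against 46.5%. On the high-fat diet their median turned to 0.0225, beside 0.0171 over all genes. In the diet comparisons 13 were lower on the high-fat array in young mice (47.6% of all genes) and 3 in old mice (48.9%). Median centring shifts every gene of a comparison alike. With it 14 of 40 were lower on the old high-fat array with a median of 0.0357, beside 33.7% and a median of 0.0845 over all genes, and 5 were lower with the high-fat diet in old mice, beside 31.8% of all genes. Both old arrays lay below both young arrays in 4 of 13 collagens with a floor of 100 (9.0% of all genes) and in 12 of 40 after median centring (11.7%). Leaving out 1 array can only keep or raise that count. It was 20 without the young low-fat array (54.1%, against 30.4% of all genes) and 21 without the old low-fat array (56.8%, against 27.7%). It was 28 without the old high-fat array (75.7%, against 29.1%) and 29 without the young high-fat array (78.4%, against 29.0%). Both old arrays lay above both young arrays in 1 collagen without a floor, Col6a5. Without 1 array they did so in 1 to 6, with 6 when the young low-fat or the old low-fat array was left out. That count too could only stay or rise. The share of all genes was not counted for it, so the 1 to 6 are not read as particular to the collagens. The causes of these moves were not tested, except that the higher floor left fewer collagens, centring adds a constant and leaving out an array drops pairs. Crossed pairs of an old and a young array gave 29 and 30 of 37 lower, against 47.6% and 44.5% of all genes. No paired analysis was possible because each group has 1 pooled array and the labels carry no replicate numbers.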
